A study of Mus musculus with 6 samples.

Results

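Cytosolic ribosomal protein genes were followed in kidney endothelial cells of 6 mice. The members were the protein-coding genes whose symbol is Rpl or Rps followed by a number, with an optional a, l or x, together with Rplp0, Rplp1, Rplp2 and Rpsa. Repeated symbols were reduced to the row of highest mean. This gave 80 of the 55487 genes in the table, of which 21936 were protein-coding. By name, 49 members belong to the large ribosomal subunit and 31 to the small subunit.

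The I-PpoI group was 3 mice carrying VE-cadherin Cre and an I-PpoI gene behind a STOP cassette, at a Rosa locus that the labels number differently for each mouse (ROSA26, ROSA27 and ROSA28). The control group was 3 littermates labelled as wild type, with no Cre or I-PpoI allele named. All 6 mice were given a high-fat diet (60% of energy as fat) over 4 weeks, beginning when they were 8 weeks old. Cells were collected from enzyme-digested whole kidney with magnetic beads against CD31, so the preparation is an enrichment of endothelium and can hold other kidney and blood cells. VE-cadherin, encoded by Cdh5, joins endothelial cells to each other, and Cre driven by its promoter also marks part of the blood lineage. I-PpoI, a homing endonuclease, cuts both strands of DNA, and its natural target lies in the large-subunit ribosomal RNA gene.

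Ribosomal proteins assemble with ribosomal RNA in the nucleolus into the small subunit, which reads the mRNA, and the large subunit, which joins amino acids. The genes are transcribed at high and similar rates in nearly all cells. Their mRNAs begin with a tract of C and U called a terminal oligopyrimidine tract, through which mTORC1 and Larp1 adjust their translation. Rpl5 and Rpl11 also bind, with 5S ribosomal RNA, the p53 ligase Mdm2 when ribosome assembly is disturbed.

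Start regions were printed to show annotated starts with and without a long run of C and T. The starts used in these cells were not measured, so a short run does not show that an mRNA lacks the tract. RefSeq start windows (GRCm38.p6, from 250 bases before the start to 50 after it) matched 60 of the 80 members, with 72 windows. The lines give 40 bases, 20 on each side of the start, in the direction of transcription. Capital letters mark the longest run of C and T that reaches within 20 bases of the start, where it has at least 8 bases.

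Rpl27a: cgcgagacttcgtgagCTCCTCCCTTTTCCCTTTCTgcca
Rpl35: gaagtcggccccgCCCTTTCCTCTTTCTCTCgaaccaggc
Rpl15: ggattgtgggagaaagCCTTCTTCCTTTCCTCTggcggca
Rps6: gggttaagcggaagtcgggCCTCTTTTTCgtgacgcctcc
Rps27: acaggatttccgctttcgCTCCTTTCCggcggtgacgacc
Rps28: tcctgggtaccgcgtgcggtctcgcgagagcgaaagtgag
Rpl3l: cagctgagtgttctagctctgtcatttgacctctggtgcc

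Rpl27a (chr7:109519175-109519214, plus strand) had a run of 20 bases, Rpl35 (chr2:39005112-39005151, minus strand) of 18 and Rpl15 (chr14:18270967-18271006, minus strand) of 17. Rps6 (chr4:86857348-86857387, minus strand) had 10 and Rps27 (chr3:90213629-90213668, minus strand) had 9. At the starts of Rps28 (chr17:33824543-33824582, minus strand) and of Rpl3l (chr17:24727806-24727845, plus strand) the longest run was 5 bases.

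A run of at least 8 bases was found in 34 of the 72 member windows (47.2%), against 6893 of all 32851 windows (21.0%), members included. Over the whole windows and on both strands, the letters CTTTCC occurred in 36 of 72 member windows and in 26.6% of all windows. The letters CTCTTT occurred in 44.4% of member windows and 23.0% of all windows, and their matches can share bases with those of the motif before. The core bound by ETS factors, CCGGAAG, occurred in 36.1% of member windows and 8.86% of all windows. The letters TATAAA occurred in 8.33% and 13.6%. A match describes these letters and does not show that a factor binds there.

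The libraries differed in depth, in strand and in what else they held, with I-PpoI mice 1 and 2 apart in depth and strand. FPKM (fragments per kilobase of exon and per 1000000 fragments) multiplied by exon length gave whole fragments, which summed to 1590963, 834147 and 13324494 in I-PpoI mice 1, 2 and 3, against 14081375 to 16954354 in controls. Antisense gene models took 14.7, 10.02 and 0.119% of fragments in I-PpoI mice 1, 2 and 3, against 0.197 to 0.225% in controls. Mitochondrial genes took 6.42, 38.2 and 48.2% of fragments in I-PpoI mice, against 8.83 to 18.3% in controls. Fragments of Ddx3y, a gene on the Y chromosome, numbered 20, 0 and 0 in I-PpoI mice, against 959 to 1672 in controls. Xist, the RNA that silences an X chromosome in female cells, had 0, 70 and 4739 fragments in I-PpoI mice, against 4, 0 and 0 in controls. I-PpoI mice 2 and 3 thus held Xist without Ddx3y, as in females, while I-PpoI mouse 1 and the controls held Ddx3y with little or no Xist, as in males. All 10 endothelial markers were detected in every library, and their summed level was 616 to 1295 FPKM in I-PpoI mice, against 2156 to 2338 FPKM in controls. The 9 proximal tubule markers summed to 121, 375 and 1260 FPKM in I-PpoI mice, against 317, 983 and 274 FPKM in controls. Most of the sum in I-PpoI mouse 3 and control mouse 2 was Kap, with 11.5, 25.3 and 710 FPKM in I-PpoI mice, against 134, 755 and 165 FPKM in controls. The 5 red cell markers summed to 103 to 213 FPKM in I-PpoI mice, against 243 to 992 FPKM in controls. Of these tubule and red cell markers, Hbb-bt in I-PpoI mouse 1 was the one listed at 0. The part of these differences in the results on ribosomal protein genes was not tested. In sorted bulk cells, fewer cells of a type and less RNA per cell cannot be told apart.

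Ribosomal protein genes took 1.06, 0.989 and 0.923% of fragments in I-PpoI mice 1, 2 and 3, against 1.36, 3.16 and 1.53% in control mice 1, 2 and 3. The 95% exact Clopper-Pearson intervals, which cover counting error only, were 1.04 to 1.07%, 0.968 to 1.01% and 0.917 to 0.928% in I-PpoI mice. No I-PpoI library overlapped the controls in this share. Its total includes mitochondrial fragments, which were 6.42, 38.2 and 48.2% in I-PpoI mice 1, 2 and 3, against 8.83 to 18.3% in controls. Their part in the separation was not tested. Among nuclear protein-coding genes with no exon of an opposite-strand gene within 5 kb, called strand-clear here and defined after the data were seen, the share was 2.47, 3.77 and 1.87% in I-PpoI mice, against 1.48, 3.84 and 1.84% in controls. There the groups overlapped, and the highest value was a control. This set leaves out mitochondrial genes and genes near opposite-strand exons together, and the part of each in the overlap was not tested.

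Of the 80 members, 77 had a mean of at least 1 FPKM over the 6 libraries and were tested. The median member was at 61.0, 60.1 and 55.9 FPKM in I-PpoI mice, against 77.4, 191.9 and 93.6 FPKM in controls. The order of members by level was close to the order of the control mean in I-PpoI mouse 3, with Spearman's rho of 0.972 over 77 members, against 0.845 in each of I-PpoI mice 1 and 2. Each control had a rho of 0.961 to 0.983 with the mean of the other controls. Genes of a library share its depth and normalization, so these values describe the libraries only.

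**Figure D1:**
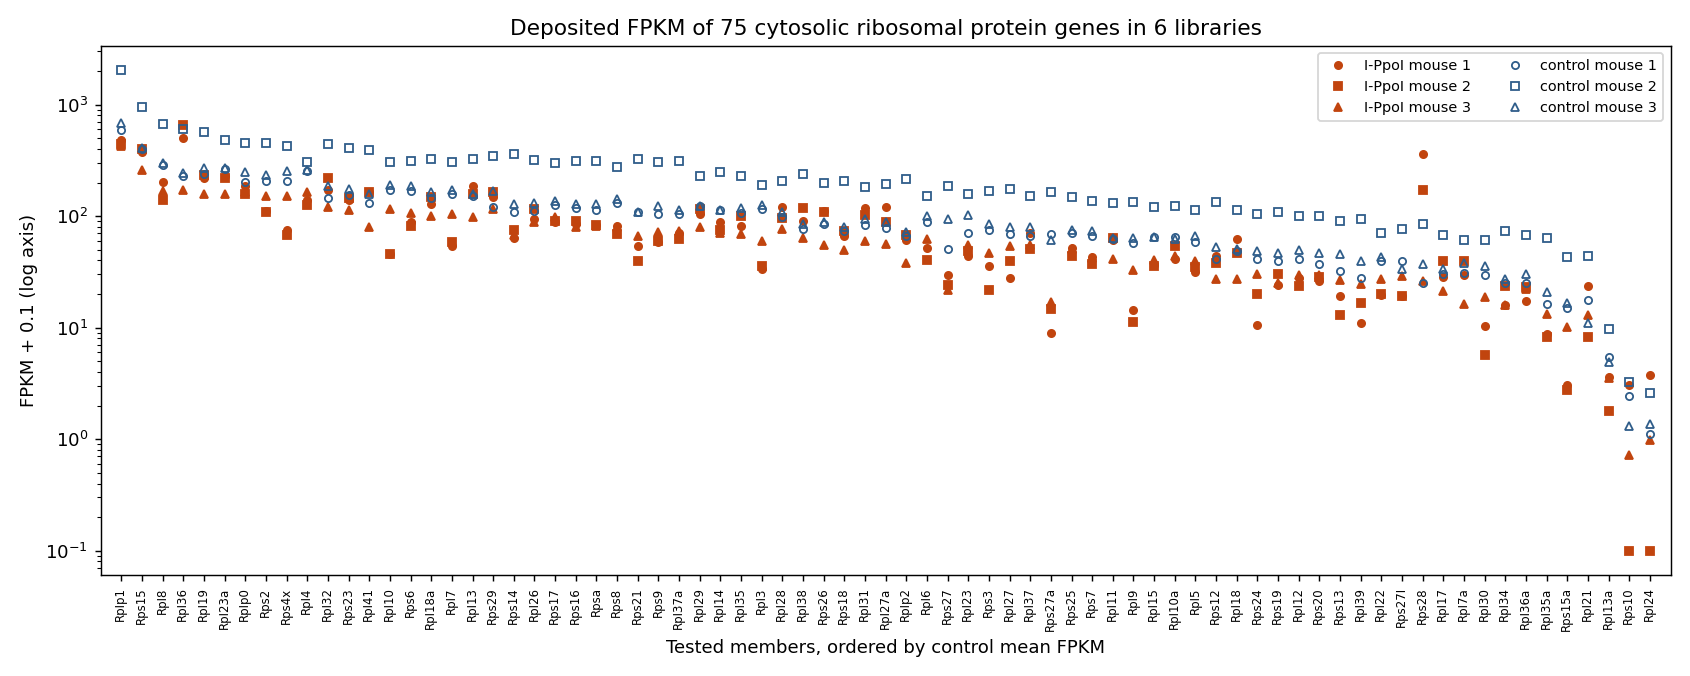
Deposited FPKM on a log axis (with 0.1 added so that values of 0 show) of 75 of the 77 tested members, ordered by control mean, with 1 point for each library. Control mouse 2 (open squares) is the highest control for 77 of 77 tested members, beside 37.1% of all genes tested, and Rps28 is the member at which I-PpoI mice 1 and 2 stand furthest above the controls.

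The stalk proteins of the large subunit, which recruit translation factors, included the member of highest level. Rplp1 had 485, 445 and 428 FPKM in I-PpoI mice 1, 2 and 3, against 592, 2043 and 681 FPKM in control mice. All I-PpoI libraries were below all controls, as on deposited FPKM for 45.1% of all genes, and control mouse 2 stood far above the rest. Rplp0, the scaffold of the stalk, had 184, 158 and 165 FPKM in I-PpoI mice, against 203, 448 and 248 FPKM in controls, again without overlap. Rplp2, the partner of Rplp1, had 60.8, 67.97 and 37.96 FPKM in I-PpoI mice, against 65.9, 216 and 72.6 FPKM in controls, with an overlap between the groups.

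Rpl5 and Rpl11, the members that bind Mdm2, stood in the lower part of the order by control mean. Rpl5 had 31.7, 34.7 and 39.8 FPKM in I-PpoI mice, against 58.5, 113 and 66.7 FPKM in controls. Rpl11 had 61.0, 63.3 and 40.8 FPKM in I-PpoI mice, against 61.9, 132 and 64.0 FPKM in controls. For Rpl5 the groups stood apart on deposited FPKM, while for Rpl11 I-PpoI mouse 2 lay between control mice 1 and 3.

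Small-subunit members with known roles of their own were read in the same way. Rps6, the substrate of S6 kinase, had 88.5, 81.3 and 107 FPKM in I-PpoI mice, against 169, 309 and 185 FPKM in controls. Rpsa, also known as a laminin receptor, had 82.8, 83.2 and 81.5 FPKM in I-PpoI mice, against 114, 311 and 129 FPKM in controls. Both were lower in every I-PpoI library than in any control. Rps14, needed for maturation of the small-subunit RNA and lost in a human anaemia syndrome, had 63.5, 74.3 and 67.7 FPKM in I-PpoI mice, against 109, 361 and 129 FPKM in controls. Rps19, mutated in human Diamond-Blackfan anaemia, had 24.2, 30.1 and 24.95 FPKM in I-PpoI mice, against 39.5, 109 and 46.3 FPKM in controls. Their deposited levels were thus separated between the groups as well, as they were for 53 of 77 members and 45.1% of all genes. On the scaled FPKM defined further below, the groups overlapped for Rplp0, Rplp1, Rpl5, Rps6, Rpsa, Rps14 and Rps19. Rps14, for example, then had 74.4, 127 and 82.1 FPKM in I-PpoI mice, against 75.5, 273 and 101 FPKM in controls.

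Of the X-linked members, Rps4x, a small-subunit protein, had 74.5, 67.3 and 152 FPKM in I-PpoI mice, against 208, 425 and 255 FPKM in controls. Rpl10, which joins the large subunit late in its maturation, had 45.3, 45.9 and 116 FPKM in I-PpoI mice, against 173, 307 and 189.8 FPKM in controls. In both, I-PpoI mice 1 and 2 lay well below I-PpoI mouse 3. The female pattern of I-PpoI mice 2 and 3 was seen in no control, and its part in the levels of X-linked members was not tested. Rpl22, a large-subunit protein needed for T lymphocyte development in mice, had 19.5, 20.1 and 27.0 FPKM in I-PpoI mice, against 39.5, 69.8 and 42.7 FPKM in controls.

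The 5 members of highest control mean were Rplp1, Rps15, Rpl8, Rpl36 and Rpl19. Rps15, a small-subunit protein near the decoding site, averaged 344 ± 76.7 FPKM in I-PpoI mice, against 588 ± 319 FPKM in controls (SD, n = 3 each). Rpl8, a large-subunit protein, averaged 169 ± 30.2 FPKM in I-PpoI mice, against 420 ± 220 FPKM in controls (SD, n = 3 each, as for the means that follow). Rpl36 averaged 443 ± 247 FPKM in I-PpoI mice, against 359 ± 215 FPKM in controls. Rpl19 averaged 204 ± 41.4 FPKM in I-PpoI mice, against 357 ± 179 FPKM in controls. The control means of neighbours in this order differed by less than the SD of the higher one, Rplp1 and Rps15 included. FPKM uses the union of a gene's annotated exons, which was a median of 2.11 times the length of the member's first-named coding transcript and up to 13.4 times for Rps24. Per kilobase of transcript instead of exon union, the control order of members had a rho of 0.76 with the FPKM order, Rplp1 stayed first, and Rps24 moved to rank 2 from rank 58.

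Control mouse 2 stood apart from the other controls in nearly all members. FPKM divided by median-of-ratios size factors, called scaled FPKM, puts the median of all tested genes near 0 difference in each library. On this scale the median member lay at log2 differences of -0.29, 0.20 and -0.28 from its control mean in I-PpoI mice 1, 2 and 3, against -0.54, 0.79 and -0.22 in control mice 1, 2 and 3. The I-PpoI libraries therefore all lay within the range of the controls. Control mouse 2 was the highest control for 77 of 77 tested members, beside 40.2% of all genes tested. It was at least 1.5-fold above both other controls for 72 members, beside 17.2% of all genes, and at least 2-fold above both for 39 members, beside 8.55%.

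The 5 tested members under that 1.5-fold gap were Rpl23, Rpl3, Rpl4, Rpl6 and Rps10. For Rpl4 the scaled level was 164, 214 and 199 FPKM in I-PpoI mice, against 175, 230 and 202 FPKM in controls. For Rplp1 it was 568, 761 and 519 FPKM in I-PpoI mice, against 411, 1546 and 534 FPKM in controls. The gap of control mouse 2 thus differed between members, from 1.14-fold for Rpl4 to 2.95-fold for Rpl35a over the higher of the other controls.

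The gap moved with gene length beyond the members. Among other protein-coding genes tested, 586 of 1263 (46.4%) with an exon length of at most 1781 bases, the median of members, were at least 1.5-fold above both other controls in control mouse 2, against 791 of 10317 (7.67%) of longer genes. Of mitochondrial ribosomal protein genes, a list chosen after the values of the members were seen, 42 of 77 tested genes reached 1.5-fold and 75 had their highest control in mouse 2. Red cell markers summed to 992 FPKM in control mouse 2, against 659 and 243 FPKM in the other controls. The part of length or of other cells in the level of control mouse 2 was not tested.

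**Figure D2:**
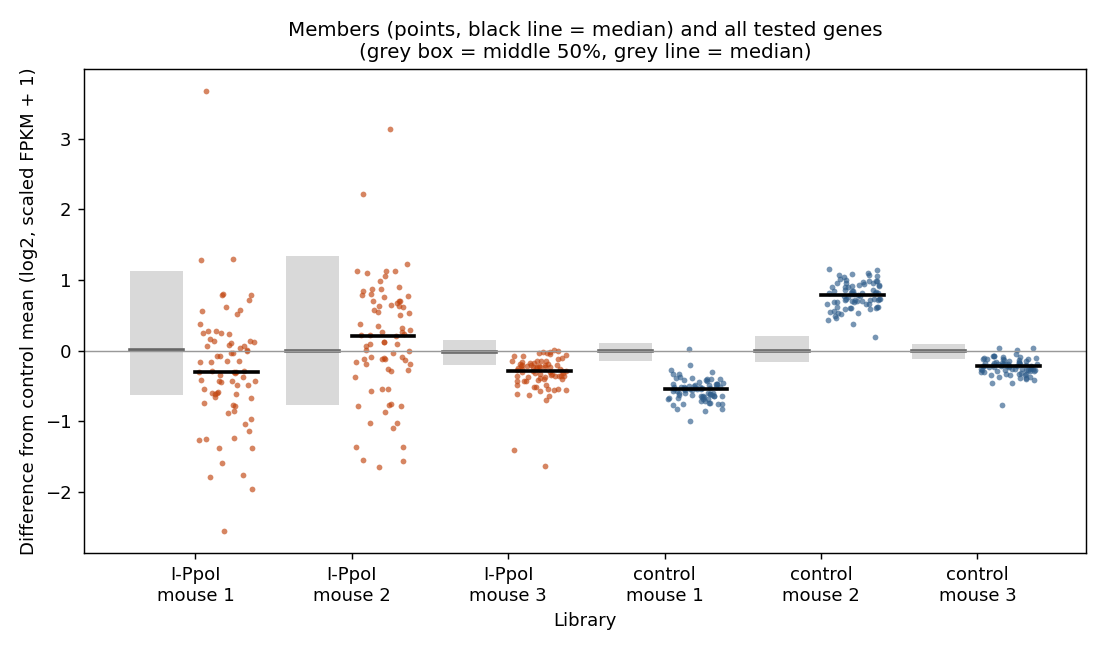
Difference of each library from the control mean, on the log2(scaled FPKM + 1) scale, for 77 tested members (points, with the median as a black line) and for all tested genes (grey box, middle 50%, with the median as a grey line). Members in control mouse 2 lie around 0.79 while all genes stay near 0, and members are spread widely in I-PpoI mice 1 and 2.

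The main comparison asked whether ribosomal protein genes differed between I-PpoI and control cells. No member passed, and neither did any other gene. Limma on log2(FPKM + 1) with Benjamini-Hochberg adjustment over 14962 genes called 0 of 77 members at an adjusted p under 0.05, beside 0% of all genes, and the smallest adjusted p of a member was 0.132. At an unadjusted p under 0.05, 32 members were lower in I-PpoI mice (beside 32.2% of all genes) and 0 were higher (beside 4.23%). Limma-voom on the recovered fragments also called 0 members, with 32 at an unadjusted p under 0.05, beside 3773 of 14945 genes.

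Deposited levels were lower in I-PpoI libraries for most genes. The log2 fold change was below 0 for 75 of 77 members, beside 71.6% of all genes, with a median of -0.92 for members and -0.65 for all tested genes. Every I-PpoI library was below every control for 53 members, beside 45.1% of all genes. Control mouse 2 carried much of the member median, which was -0.54 without it, against -0.63 for all genes. In that limma fit 12 of 77 members were at an unadjusted p under 0.05, beside 2443 of 14971 genes.

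On scaled FPKM the members no longer stood to one side. Limma called 0 of 77 members and 0 of 14962 genes, with 2 members at an unadjusted p under 0.05 and lower, beside 2.87% of all genes, and 0 higher, beside 5.44%. The log2 fold change was above 0 for 32 members and below 0 for 45, where 49.2% of all genes were below 0. The median was -0.13 for members and 0.02 for all genes. The sign of the member median rested on control mouse 2, without which it was 0.29 with 54 members above 0. It was -0.42 with 64 members below 0 without control mouse 1 and -0.25 with 54 below 0 without control mouse 3. Without I-PpoI mouse 1, 2 or 3 it was -0.05, -0.21 or -0.05. The 46 large-subunit members tested had a median of 0.03, with 22 below 0, and the 31 small-subunit members a median of -0.25, with 23 below 0. Among 27 strand-clear members, scaled and fitted with strand-clear genes only, 23 were above 0, beside 1760 of 3717 strand-clear genes. The median was 0.23, against -0.04 over those genes, with 0 called in either set. Scaled and fitted with all genes, the same 27 members had a median of -0.07, with 11 above 0.

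The lowest scaled change belonged to Rps27a, which encodes ubiquitin fused to a small-subunit protein. Its scaled level was 10.4, 24.8 and 20.6 FPKM in I-PpoI mice, against 48.1, 124 and 47.5 FPKM in controls. The groups did not overlap, and the log2 fold change was -1.85 ± 0.53 (SE, limma adjusted p = 0.318). Rps15a, a small-subunit protein, followed at -1.33 ± 0.60, with 3.49, 4.56 and 12.1 scaled FPKM in I-PpoI mice, against 10.3, 32.2 and 12.996 in controls. Rpl9, a large-subunit protein at the base of the stalk, had 16.6, 19.2 and 39.6 scaled FPKM in I-PpoI mice, against 39.7, 101 and 49.8 in controls, a change of -1.29 ± 0.50. Rps27 and Rpl30 came next at -1.08 ± 0.54 and -1.06 ± 0.46. In I-PpoI mice 1 and 2 these levels rest on few fragments. Rps27a had 28 and 24, Rps15a 30 and 14, Rpl9 70 and 29, and Rps27 49 and 21. None of these changes in scaled FPKM passed the adjusted threshold. Every I-PpoI library was below every control on this scale for Rpl3, Rpl9 and Rps27a, which is 3 of 77 members beside 9.75% of all genes, and 0 members were above every control, beside 7.65%.

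The highest scaled change belonged to Rps28, a small-subunit protein at the mRNA exit. It had 424, 291 and 31.8 scaled FPKM in I-PpoI mice 1, 2 and 3, against 17.4, 64.7 and 29.0 in controls. I-PpoI mice 1 and 2 were far above all other libraries and I-PpoI mouse 3 lay within the controls, so that the change of 2.27 carried an SE of 1.07 (limma adjusted p = 0.318). Without I-PpoI mice 1 and 2, the log2 fold change of Rps28 on deposited FPKM was -0.69. Rpl36, Rpl31, Rps26 and Rpl27a followed with scaled changes of 1.10 ± 0.73, 0.52 ± 0.49, 0.47 ± 0.54 and 0.46 ± 0.51. In each of these, the highest I-PpoI value was in mouse 2 and the scaled level of I-PpoI mouse 3 lay between control values, as for Rpl36 with 587, 1119 and 209 scaled FPKM in I-PpoI mice, against 159, 459.8 and 189.7 in controls.

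I-PpoI mouse 3 was the I-PpoI library with depth and strand like the controls. Its deposited FPKM was below the lowest control for 75 of 77 members, beside 70.7% of all genes, with a median difference of -0.96 on the log2 scale. Scaled, 7 members (Rpl18, Rpl3, Rpl7a, Rpl9, Rps10, Rps27 and Rps27a) were below the lowest control, beside 26.1% of all genes, and 0 were above the highest, beside 22.2%. With only the 4 libraries scaled together, its median member difference was -0.26. It is 1 library, so no replicate error stands behind these values.

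Leaving out I-PpoI mouse 3 changed the calls. Limma then called 29 members on deposited FPKM, 28 lower and 1 higher, beside 56.1% of all genes (36.1% lower and 19.9% higher). On scaled FPKM it called Rps27a, Rps15a, Rpl9, Rpl30 and Rpl10 lower and Rps28 higher, which is 6 of 77 members beside 37.7% of all genes (13.8% lower and 23.9% higher). The remaining I-PpoI libraries are the shallow ones with fragments on antisense models.

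Gene models on the opposite strand of members took shares of fragments that followed the library. Exons of 18 of the 80 members were overlapped by an exon on the other strand, in 20 pairs. In 11 of these pairs the other model's share of the pair's fragments was higher in both I-PpoI mice 1 and 2 than in any other library. In those 11 pairs it ran from 23.7 to 97.6% in I-PpoI mice 1 and 2, and from 2.39 to 21.0% in the other 4 libraries. The strand setting of the authors' counting is not given in the sources used here.

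In some pairs the facing model is a protein-coding gene. Rpl23a, at the exit of the peptide tunnel, had 310, 156 and 1797 fragments in I-PpoI mice, against 3642, 5768 and 3838 in controls. Tlcd1, which shares 506 exon bases with it, had 3808, 1701 and 259 fragments in I-PpoI mice, against 441, 530 and 473 in controls. Its share of the pair was 92.5 and 91.6% in I-PpoI mice 1 and 2, against 8.42 to 12.6% in the other libraries. In I-PpoI mice 1 and 2 the order of the pair was thus turned round, although these libraries held far fewer fragments in all.

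Rpl35, whose start region is printed above, faces Wdr38 over 821 bases. Wdr38 took 92.6, 91.7 and 7.52% of the pair in I-PpoI mice, against 7.66, 6.89 and 6.27% in controls. Rpl30, a large-subunit protein, faces D730044K07Rik, which took 95.8, 97.6 and 2.61% in I-PpoI mice, against 2.39, 4.08 and 2.89% in controls. Rpl30 kept 50 and 14 fragments in I-PpoI mice 1 and 2, so its scaled change of -1.06 rests on few fragments. Dipk1a, facing Rpl5 over 953 bases, took 50.1, 49.8 and 7.40% in I-PpoI mice, against 8.41, 4.14 and 6.18% in controls.

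Rps28 ran the other way. Its partner Kank3, an ankyrin-repeat gene, shares 88 exon bases with it and took 32.5, 27.3 and 73.1% of the pair in I-PpoI mice, against 86.6, 66.5 and 78.5% in controls. Rps28 had 998, 245 and 601 fragments in I-PpoI mice 1, 2 and 3, against 695, 2066 and 1077 in controls, and Kank3 had 480, 92 and 1637, against 4486, 4107 and 3922. I-PpoI mouse 1 therefore held more Rps28 fragments than control mouse 1, although its library was far smaller.

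**Figure D3:**
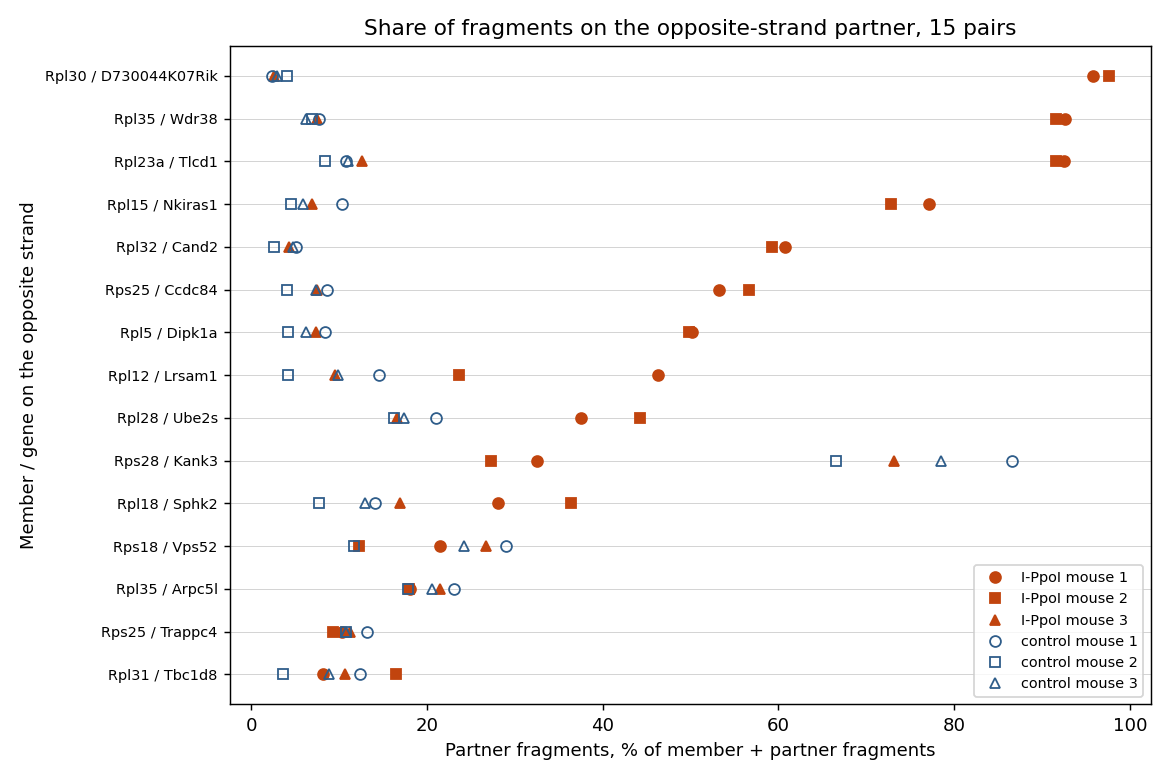
Share of fragments on the opposite-strand gene, in percent of the fragments of the pair, for 15 member and partner pairs in 6 libraries. In the upper pairs I-PpoI mice 1 and 2 (filled circles and squares) lie far to the right of the other 4 libraries, and for Rps28 and Kank3 they lie to the left.

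Members without an overlapping partner did not all lie near 0 either. The 18 overlapped members had a median scaled change of 0.05, from -1.85 to 2.27, with 10 above 0. The 27 tested members with no opposite-strand gene within 5 kb had a median of -0.07, from -1.33 to 0.47, with 11 above 0. The 32 members with such a gene nearby but no overlap had a median of -0.30, with 11 above 0. The difference between these sets was not tested.

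Several members share sequence with processed copies elsewhere in the genome, so that fragments can be split between genes. Of the 100-base windows of a member's transcript, at least 50% also occurred in a transcript of another gene for 35 members. Rps27 shared 98.4%, Rpl10 91.6% and Rpl5 91.1% of windows. Members with no shared window included Rpl10l, Rpl22, Rpl32, Rpl3l, Rpl39l, Rps21, Rps27l and Rps3. Across the 77 tested members, the shared percentage had a Spearman's rho of -0.18 with the control mean FPKM. How the authors treated reads that match several genes is not given in the sources used here.

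For Rps27a the split between copies differed between the libraries. Rps27a took 38.9, 49.0 and 34.2% of the fragments assigned to it and to the processed pseudogenes Rps27a-ps2 and Gm8430 in I-PpoI mice 1, 2 and 3, against 89.6, 70.2 and 72.1% in controls. The exact 95% intervals were 27.6 to 51.1%, 34.4 to 63.7% and 31.6 to 36.8% in I-PpoI mice, against 88.3 to 90.8%, 69.1 to 71.3% and 70.4 to 73.8% in controls. All I-PpoI libraries were below all controls, I-PpoI mouse 3 included. The sum of the family, in scaled fragments per 1000000, was 52.98, 100.5 and 119 in I-PpoI mice, against 106, 348 and 129.9 in controls, and there the groups overlapped. The families were chosen after the values of Rps27a and Rps27 were seen, and they hold only the copies named here. Windows of Rps27a occurred in 4 other genes, those of Rpl17 in 16 and those of Rps10 in 3. Among the named copies, a lower share was not general. Rpl17 took 60, 44 and 372 of 161, 103 and 1371 fragments of itself, Rpl17-ps10 and Rpl17-ps3 in I-PpoI mice. In controls it took 645, 1265 and 747 of 2385, 4967 and 2770, so its share was not lower in I-PpoI mice. For Rps10 with Rps10-ps2, the shares overlapped between the groups.

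Rps27, a zinc-finger protein of the small subunit, has a near-identical gene, Rps27rt. Rps27 took 47.6, 33.3 and 36.0% of the fragments of both in I-PpoI mice, against 55.9, 81.8 and 87.8% in controls. Its own level was 29.3, 24.03 and 21.7 FPKM in I-PpoI mice, against 51.0, 185 and 93.6 FPKM in controls, while Rps27rt had 90.02, 134 and 108 FPKM in I-PpoI mice, against 112, 114 and 36.3 FPKM in controls. The summed scaled level of both, 75.8, 129 and 76.2 fragments per 1000000 in I-PpoI mice, against 66.1, 178 and 87.2 in controls, overlapped between the groups. The low levels of Rps27a and Rps27 are therefore uncertain as levels of these genes.

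**Figure D4:**
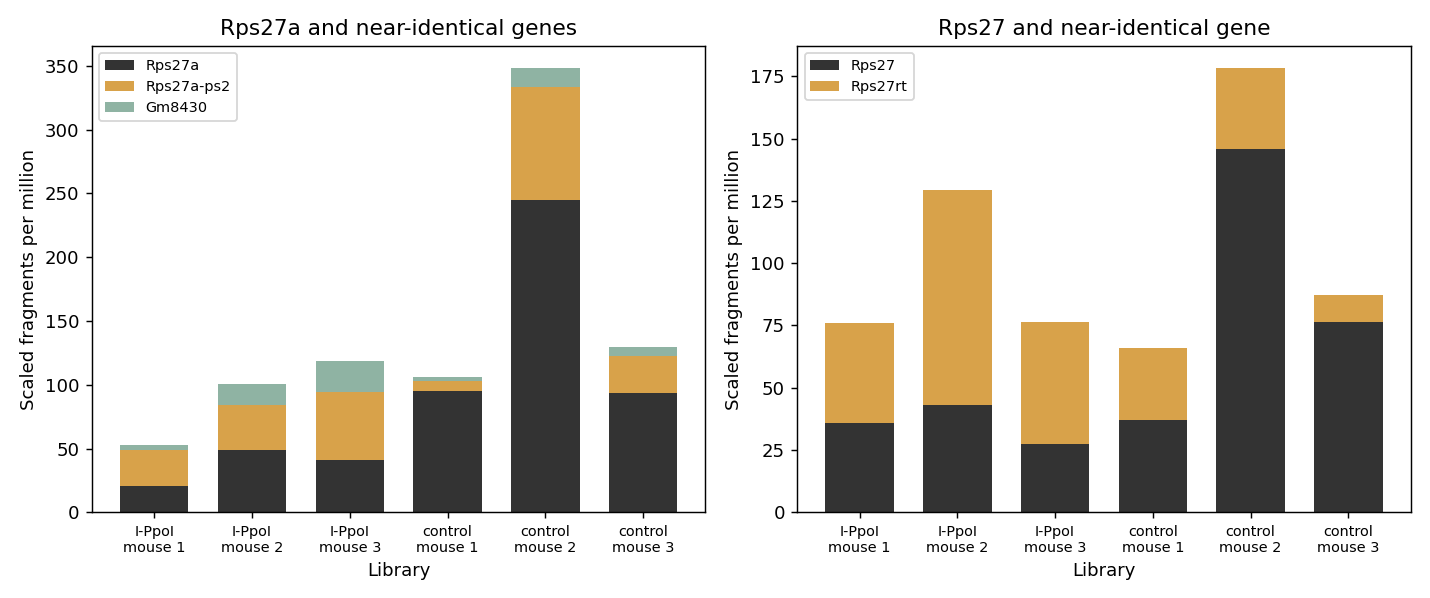
Scaled fragments per 1000000 of Rps27a with 2 processed pseudogenes (left) and of Rps27 with Rps27rt (right), stacked by gene, in 3 I-PpoI and 3 control libraries. The dark part (the member itself) is a smaller share of the bar in I-PpoI libraries, and the whole bars overlap between the groups.

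Pseudogenes named after members took little of the total. The table holds 311 of them, of which 61 had a mean of at least 1 FPKM and 151 were at 0 in all 6 libraries. They took 4.10, 4.46 and 4.81% of the fragments of members and pseudogenes together in I-PpoI mice, against 3.97 to 4.04% in controls. The highest were Rpl17-ps10 with a control mean of 182 FPKM and Rps10-ps2 with 148 FPKM, both above their parent genes. Rps10-ps2 had 46.5, 19.3 and 68.1 FPKM in I-PpoI mice, against 84.8, 248 and 111 FPKM in controls.

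The 3 tested members of lowest level were those with the most exon sequence under another gene on the same strand. Rpl24, a protein of the bridge between subunits, had 47.0% of its exon bases under another model and levels of 3.63, 0 and 0.874 FPKM in I-PpoI mice, against 1.02, 2.48 and 1.26 FPKM in controls. Rpl13a, a large-subunit protein with a role in translational silencing in human cells, had 35.4% covered and 3.54, 1.69 and 3.41 FPKM in I-PpoI mice, against 5.33, 9.55 and 4.8002 FPKM in controls. Rps10, a small-subunit protein near the mRNA entry, had 20.6% covered and 2.97, 0 and 0.617 FPKM in I-PpoI mice, against 2.36, 3.14 and 1.20 FPKM in controls.

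Each of these 3 shares exon sequence with a model on its strand (Gm28037, Gm45713 and Gm49804) to which no fragment was assigned in any library. The other 74 tested members had at most 14.5% covered, for Rpl32 by a small nucleolar RNA gene, and control means of 24.1 FPKM or more. A count of 0 for Rps10 and Rpl24 in I-PpoI mouse 2 allows up to 3 of its 834147 fragments. These low values describe fragments assigned to the gene and are uncertain as levels of its RNA.

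**Figure D5:**
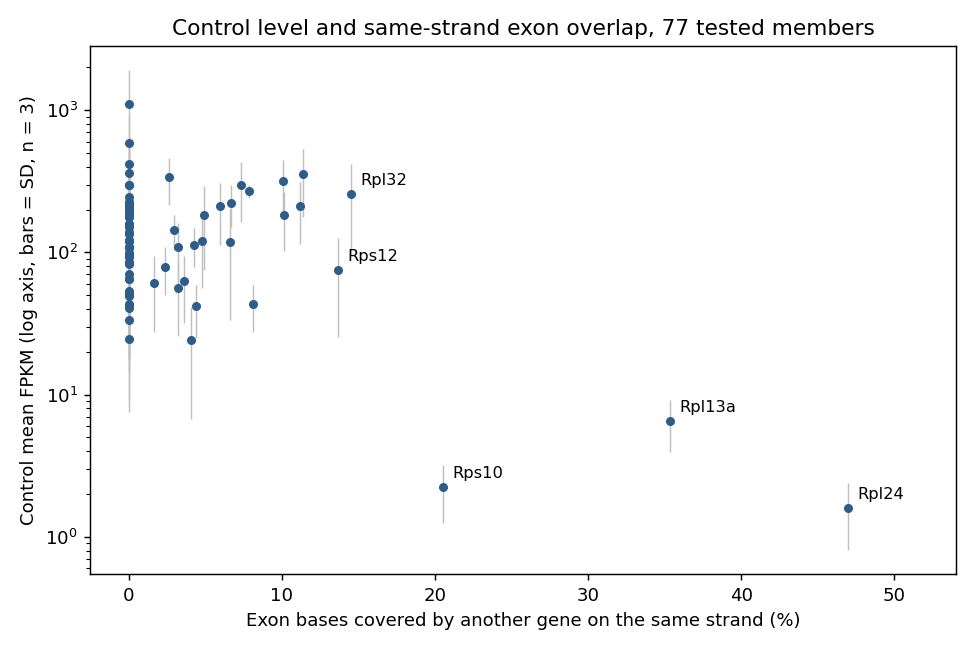
Control mean FPKM on a log axis (bars show the SD over 3 controls) against the percentage of a member's exon bases covered by another gene on the same strand, for 77 tested members. Rpl13a, Rps10 and Rpl24, with 35.4, 20.6 and 47.0% covered, lie below all other members.

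Paralogs with restricted expression were read beside their common partners. Rpl3l, the striated-muscle paralog of Rpl3, had 0 fragments in all I-PpoI libraries and 0.113, 0.519 and 0.144 FPKM in controls, while Rpl3, at the peptidyl transferase centre, had 33.8, 35.3 and 60.3 FPKM in I-PpoI mice, against 116, 189.7 and 125 FPKM in controls. Rpl39l, a testis paralog of the tunnel protein Rpl39, was at 0 in I-PpoI mice and at 0.298, 0 and 0.0710 FPKM in controls. Rpl39 had 10.9, 16.6 and 24.4 FPKM in I-PpoI mice, against 27.7, 93.2 and 39.2 FPKM in controls. Rpl10l, the testis paralog of Rpl10, was at 0 in all 6 libraries. The common genes thus exceeded these paralogs in every library.

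Rps27l, a p53-induced paralog of Rps27, was the exception in level. It had 19.1, 19.0 and 28.7 FPKM in I-PpoI mice, against 39.6, 76.5 and 33.5 FPKM in controls, which is within the range of other members. It shares no 100-base window with another gene. Its log2 fold change was -1.06 ± 0.42 on deposited FPKM (limma adjusted p = 0.135) and -0.24 ± 0.40 on scaled FPKM (adjusted p = 0.737).

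Genes that work with ribosomal proteins were read from lists, all with 0 genes called on either scale. Of 14 translation factors and other genes with oligopyrimidine tracts, 13 were lower at an unadjusted p under 0.05 on deposited FPKM, beside 32.2% of all genes, and 1 on scaled FPKM, beside 2.87% of all genes, with medians of -1.30 and -0.46. Eef1a1, the elongation factor that delivers tRNA, had 509, 416 and 779 FPKM in I-PpoI mice, against 1078, 1682 and 1260 FPKM in controls. Eef2, the translocation factor, had 344, 257 and 291 FPKM in I-PpoI mice, against 476, 513 and 499 FPKM in controls. Unlike most members, Eef2 was not far higher in control mouse 2 than in the other controls.

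Ribosomal proteins and paralogs outside the naming rule gave 8 tested genes of 9, with medians of -0.97 deposited and -0.13 scaled, and 4 above 0 on the scaled values. One of them, Rpl41, is also a member. Fau, which encodes a small-subunit protein fused to a ubiquitin-like one, had 232, 253 and 115 FPKM in I-PpoI mice, against 175, 504 and 199 FPKM in controls. Rack1, a scaffold on the small subunit, had 30.0, 29.1 and 43.7 FPKM in I-PpoI mice, against 62.5, 136 and 70.2 FPKM in controls.

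Regulators of these mRNAs gave 10 tested genes, 3 lower at an unadjusted p under 0.05 on deposited FPKM, which is near the 32.2% of all genes, and 0 on scaled FPKM, beside 2.87%, with medians of -0.51 and 0.15. Larp1, which binds the oligopyrimidine tract, had 9.04, 6.64 and 9.25 FPKM in I-PpoI mice, against 17.6, 11.9 and 15.6 FPKM in controls, with a scaled change of 0.00 ± 0.25. Mtor, the kinase of mTORC1, had 5.37, 3.54 and 5.82 FPKM in I-PpoI mice, against 9.18, 5.12 and 7.89 FPKM in controls, with a scaled change of 0.23 ± 0.28. Of these 10 regulators, 1 had its highest scaled control value in mouse 2.

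Chaperones and transport factors of ribosomal proteins gave 18 tested genes, with medians of -0.88 deposited and -0.18 scaled. At an unadjusted p under 0.05, 8 were lower on deposited FPKM, beside 32.2% of all genes, and 2 on scaled FPKM, beside 2.87%. Sbds, which releases Eif6 from the new large subunit, had 26.7, 15.3 and 25.7 FPKM in I-PpoI mice, against 44.4, 53.1 and 43.4 FPKM in controls. The p53 and 5S particle list gave 7 tested genes with medians of -0.96 deposited and -0.25 scaled. At an unadjusted p under 0.05, 5 of the 7 were lower on deposited FPKM, beside the same 32.2%, and 0 on scaled FPKM. Mdm2 had 4.42, 3.05 and 4.98 FPKM in I-PpoI mice, against 11.4, 7.59 and 7.78 FPKM in controls, with a scaled change of -0.22 ± 0.25. Trp53, which encodes p53, had 10.3, 4.43 and 10.5 FPKM in I-PpoI mice, against 16.0, 19.6 and 16.3 FPKM in controls, with a scaled change of -0.26 ± 0.30.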

How the data were processed

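RNA of CD31-sorted kidney cells was sequenced from 3 I-PpoI and 3 control mice, as paired ends of 100 cycles per the labels' protocols. The authors deposited 1 table of FPKM per gene for 55487 genes. DESeq2 and the builds mm10 and GRCm38 are named per the submitters' processing notes, and no aligner, counting tool or strand setting is given in the sources used here. Labels describe separate mice and a shared batch.

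The deposited FPKM values were multiplied by GENCODE M21 exon length, and 99.2 to 99.4% of results under 1000 fragments came out whole within 0.05. Exon lengths were found for 55141 genes, 54784 with the same coordinates. Limma 3.58.1 (R 4.3.3) took log2(FPKM + 1) of genes averaging 1 FPKM or more, with no block term. P-values were adjusted by Benjamini-Hochberg and called under 0.05. The added 1 FPKM makes changes of low genes look smaller. A second fit used FPKM divided by median-of-ratios size factors. Both were tested on simulated data. Intervals are exact Clopper-Pearson.

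The members and lists were chosen with earlier results of these data known. Named genes are members with fixed roles (stalk, 5S particle, Rpsa, Rps6, Rps4x, Rps14, Rps19, Rps27a, Rpl22), paralog pairs, the 5 highest and 5 lowest by control mean and by scaled change, and up to 4 genes per list. Other genes, such as the strand partners and copies, were named after their values were seen. Values of 2 members are not reported here, though counts and fits include them. Sequences came from RefSeq tables and transcripts from GENCODE. The other tools were pandas 2.3.3, numpy 2.4.6, scipy 1.17.1, matplotlib 3.10.9 and python 3.11.15. Alternatives were pseudocount, filter, scaling, gene class, replicate block, limma-voom and left-out libraries.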

Additional observations from a re-analysis of the deposited data

How the results depend on the processing

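The count of 0 members called held under a pseudocount of 0.1, no filter, a stricter filter at 5 FPKM, protein-coding genes only, median-of-ratios scaling, limma-voom, the replicate block and without I-PpoI mice 1 and 2. Leaving out each library gave 0 to 29 members called on deposited FPKM and 0 to 6 on scaled FPKM, with every call coming from the fit without I-PpoI mouse 3. Over all genes the range was 0 to 8470, and without I-PpoI mice 1 and 2 it was 19. The member median ranged from -1.18 to -0.54 over left-out libraries and was -0.13 under median-of-ratios scaling. That scaled median ranged from -0.42 to 0.29 over left-out libraries and was above 0 without control mouse 2 (0.286). For the 27 strand-clear members it was 0.23 when scaled with strand-clear genes only, against -0.07 when scaled with all genes. These checks of the scaled median were chosen after seeing the data. The median of I-PpoI mouse 3 was -0.26 with the 4 libraries scaled. Members above 0 numbered 2 on deposited FPKM and 32 under median-of-ratios scaling, which moved the median of all genes from -0.65 to 0.02. Among the members named by rule, the changes that took the other sign under this scaling were those of Rplp0 (0.11), Rpl11 (0.27), Rpl19 (0.13), Rpl24 (0.048), Rpl27a (0.46), Rpl31 (0.52), Rps15 (0.18) and Rps26 (0.47). Without I-PpoI mice 1 and 2, Rpl36 was at -0.90 and Rps28 at -0.69. Over left-out libraries, Rpl24 ranged from -0.88 to 0.23, Rpl27a from -0.64 to 0.022, Rpl31 from -0.53 to 0.021, Rps26 from -0.59 to 0.019 and Rpl36 from -0.14 to 0.82. The cause of these changes was not tested. Deviations of genes from their group mean correlated at 0.09, 0.06 and -0.02 between same-numbered libraries. With few libraries per group, these values do not show whether same-numbered mice were paired. With the replicate block, 23 of 77 members were at an unadjusted limma p under 0.05, beside 4510 of 14962 genes. Without the block the counts were 32 members and 5457 genes. Depth limits I-PpoI mice 1 and 2, in which members had 16822 and 8248 fragments. I-PpoI mouse 3 had 122921 and the controls 219884 to 444585.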
